A study of Homo sapiens with 6 samples.

Results

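The protocadherin beta (PCDHB) cluster is a row of closely related genes on human chromosome 5q31, and its members were picked here by symbol, as the genes of the count table named PCDHB followed by a number. Of the 16 protein-coding PCDHB genes of the RefSeq annotation, 3 were in the count table: PCDHB2 (Entrez identifier 56133), PCDHB9 (56127) and PCDHB14 (56122). They were 3 of 12703 genes in all. The other 13 coding members and the 3 PCDHB pseudogenes were not analysed here, which does not show that they had no reads. The libraries came from PC3, an established line of human prostate cancer cells first grown from a metastasis in bone. There were 3 control lines, transduced with negative-control lentiviral particles, and 3 GCNT1 overexpressing (GCNT1 OE) lines, transduced with particles that carry the open reading frame of GCNT1. GCNT1 is the enzyme that builds core 2 branches on O-glycans, and the study asked how the transcriptome of PC3 cells differs when it is upregulated. Both groups therefore carried a lentiviral insertion and were stable lines, and whether the 3 lines of a group came from separate transductions is not given in the sources used here, so that the p values measure only the spread between these libraries.

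Clustered protocadherins are cadherin-like adhesion proteins of the cell surface, best known from neurons, where each cell expresses its own mixture of isoforms and recognises cells with the same mixture. Each PCDHB gene has its own promoter and encodes a complete protein, with extracellular cadherin repeats, 1 membrane-spanning segment and a short cytoplasmic tail. The neighbouring alpha (PCDHA) and gamma (PCDHG) clusters differ in that their many first exons are spliced to shared last exons. Promoter choice in all 3 clusters is known to involve DNA methylation, the DNA-binding protein CTCF and the ring-shaped complex cohesin. Tumours often carry methylated clustered protocadherin promoters.

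The promoters of the measured genes are printed because each member is read from its own start site and the 3 members did not move the same way. Each line gives 200 bases of RefSeq sequence of the plus strand (GRCh38.p14, the patch release of the hg38 build that the counts use), which end 51 bases before the annotated start. PCDHB2 lies at chr5:141094365-141094564, PCDHB9 at chr5:141186911-141187110 and PCDHB14 at chr5:141223093-141223292. Capitals mark the 9 letters GGTGGCGCT, a run chosen after the 3 sequences had been seen.
PCDHB2: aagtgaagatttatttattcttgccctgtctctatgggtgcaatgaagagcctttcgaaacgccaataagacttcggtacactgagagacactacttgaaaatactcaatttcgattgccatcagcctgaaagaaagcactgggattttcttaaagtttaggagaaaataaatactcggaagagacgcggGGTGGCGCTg
PCDHB9: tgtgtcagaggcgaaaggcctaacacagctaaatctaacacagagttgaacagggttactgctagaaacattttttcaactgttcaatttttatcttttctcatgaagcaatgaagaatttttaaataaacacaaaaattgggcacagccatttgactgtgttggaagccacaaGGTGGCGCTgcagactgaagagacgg
PCDHB14: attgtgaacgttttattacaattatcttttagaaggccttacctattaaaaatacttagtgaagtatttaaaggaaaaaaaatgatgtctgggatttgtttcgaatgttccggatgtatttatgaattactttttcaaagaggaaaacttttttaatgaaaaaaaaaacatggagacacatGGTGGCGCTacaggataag

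The run GGTGGCGCT began 60 bases before the start of PCDHB2, 76 bases before that of PCDHB9 and 69 bases before that of PCDHB14, so it stood at about the same place in members that moved in opposite directions. RefSeq promoters of 300 bases, from 250 before to 50 after the start, were searched on both strands, and 14 of the 16 coding PCDHB genes had one; PCDHB6 and PCDHB11 had none in the table. The run was in 13 of these 14 (92.9%), PCDHB1 being the exception, and in 176 of all 35116 promoters (0.501%). The 13 include the 3 promoters from which the run was chosen, so the share is no test of it. None of the 13 PCDHA and none of the 25 PCDHG promoters held this exact run, which was taken from PCDHB genes, and near matches were not searched. Its last letters, CGCT, are a run described for clustered protocadherin promoters, and were in 14 of 14 PCDHB promoters against 70% of all, a count that overlaps the first by construction. The CTCF core consensus, searched as a single pattern, was in 0 of 14 PCDHB promoters and in 0.47% of all promoters. So rare a match cannot show whether PCDHB promoters lack CTCF sites. The windows of PCDHB2, PCDHB9 and PCDHB14 had a GC content of 45.3%, 42% and 35.7% and held 10, 5 and 8 CpG dinucleotides, the sites of DNA methylation. All promoters had a median GC content of 58.7% and a median of 14 CpGs, so the 3 were poorer in both. A letter match is a description of the sequence, and no binding or methylation was measured.

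All 3 genes lie on the plus strand of chromosome 5 in hg38 and each is a single exon. PCDHB2 spans chr5:141094615-141098703, PCDHB9 chr5:141187161-141191541 and PCDHB14 chr5:141223343-141227759. Their annotated transcripts are 4089, 4381 and 4417 bases long, and their coding sequences 2394, 2391 and 2394 bases. The coding sequence of PCDHB2 was 79.6% identical to that of PCDHB9 and 81.2% identical to that of PCDHB14, while PCDHB9 and PCDHB14 shared 80%. The closest relative of PCDHB2 was PCDHB3 (82.8%), that of PCDHB14 was PCDHB2 (81.2%) and that of PCDHB9 was PCDHB10 (93%). PCDHB1, at the start of the cluster, was the most distant of the 16 from each of them, with 58.4% to 59.9%.

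Such likeness matters for counts of 75-base reads, since a read that fits several genes may be dropped or misplaced. Of all 75-base stretches of the transcript, 84.6% occurred once in hg38 for PCDHB2, 84.3% for PCDHB9 and 91.9% for PCDHB14. The 13 members outside the count table ran from 64% for PCDHB8 to 99.2% for PCDHB1, with a median of 90.5%. The measured genes thus stood inside the range of the unmeasured ones. Most of each transcript could be told from the rest of the genome, but reads from the repeated remainder are uncertain, most of all between PCDHB9 and PCDHB10. Antisense or same-strand transcripts also overlap each member: the antisense RNA PCDHB1-AS1 for PCDHB2, and unnamed transcripts for PCDHB9 and PCDHB14. PCDHB1-AS1 was not among the genes analysed. The unnamed transcripts have no gene symbol to match, so whether they were counted cannot be told. The libraries were stranded, but whether the counting used strand or reads with several matches is not given in the sources used here, so such reads could not be separated.

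**Figure D1:**
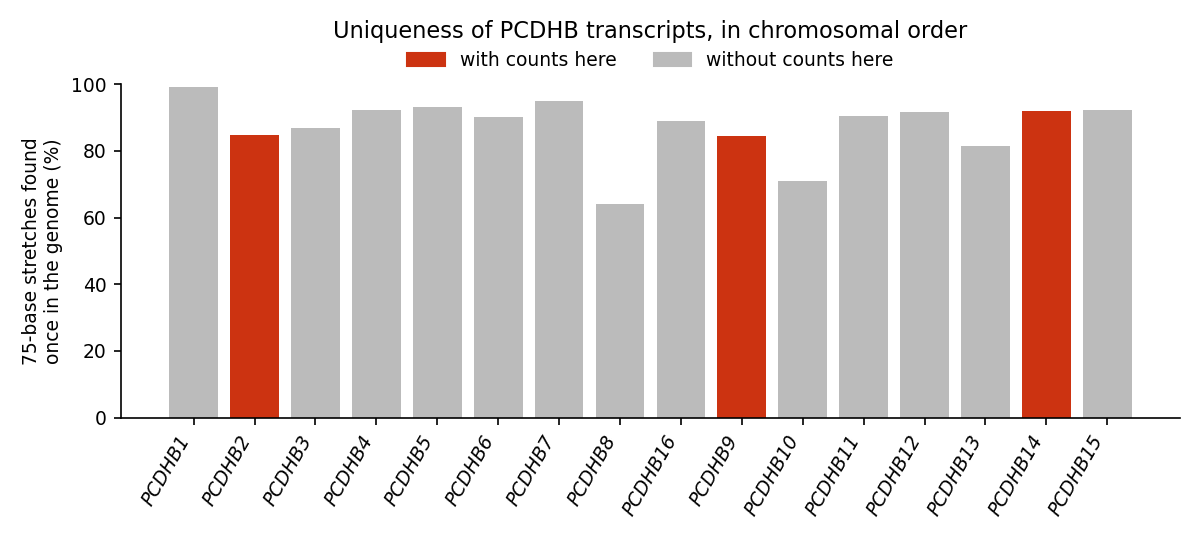
Share of all 75-base stretches of each PCDHB transcript (y axis, percent) that occur once in hg38, for the 16 coding genes in chromosomal order (x axis); red bars are the genes in the count table and grey bars those outside it. PCDHB2 (84.6%), PCDHB9 (84.3%) and PCDHB14 (91.9%) lie between PCDHB8 (64%) and PCDHB1 (99.2%).

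The deposited counts summed to between 11392213 and 13825704 per library, and 3 counts, taken as the detection floor, were worth 0.217 to 0.263 CPM (counts scaled to a common library total). No gene of the table was under 1.01 CPM in the 3 libraries where it was highest. Levels are given below as CPM scaled with edgeR's TMM factors, which correct for differences in composition between libraries, as mean ± SD of 3 libraries. The groups were compared by the quasi-likelihood test of edgeR, and p values were adjusted by the Benjamini-Hochberg method over 12703 genes. A gene was called at the thresholds the study used, an adjusted p value of 0.05 together with an absolute log2 fold change of 0.58. Intervals on counts and shares cover counting error only. The targeted gene, GCNT1, had 9, 13 and 8 counts in the control and 13, 16 and 35 in the GCNT1 OE libraries. Its level was 0.812 ± 0.202 CPM in control and 1.59 ± 0.772 CPM in GCNT1 OE (log2 fold change 0.98, SE 0.37, adjusted p value 0.0362 by edgeR). The GCNT1 OE libraries were higher as labelled, but much of this came from GCNT1 OE library 3, without which the log2 fold change was 0.49 (adjusted p value 0.269 by edgeR). Of the epithelial markers, the keratins KRT8 and KRT18 were at 222 ± 7.77 and 253 ± 7.94 CPM in control and at 202 ± 19.8 and 222 ± 8.53 CPM in GCNT1 OE. The epithelial adhesion gene EPCAM was at 5.54 ± 1.12 and 5.91 ± 0.174 CPM, and none of these was called. The epithelial cadherin CDH1 fell from 3.59 ± 0.796 to 1.1 ± 0.168 CPM. The part of this fall in the PCDHB values was not tested.

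The PCDHB genes did not move as a block. PCDHB2 and PCDHB9 rose with GCNT1 overexpression, by 13.9-fold and 5.17-fold, and PCDHB14 fell by 2.24-fold. The rise of PCDHB2 was rank 30 from the highest log2 fold change among the 12703 genes. Among all genes 19.3% were called, 8.28% as higher and 11.1% as lower in GCNT1 OE. The count of 2 higher and 1 lower is not read against these shares, because each member stood in the table through the group where it was high. Before TMM scaling PCDHB9 reached 1.01 CPM in 0 of 3 control and 3 of 3 GCNT1 OE libraries, PCDHB14 in 3 of 3 control and 1 of 3 GCNT1 OE libraries, and PCDHB2 in 2 and 3.

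PCDHB2, the second gene of the cluster, had 16, 20 and 7 counts in control libraries 1 to 3. It had 179, 244 and 221 counts in GCNT1 OE libraries 1 to 3. The lowest GCNT1 OE library was far above the highest control library, and control library 3 was the lowest of all. In TMM-scaled CPM the controls were 1.27, 1.61 and 0.592 and the GCNT1 OE libraries 15.5, 17.8 and 15.7. The mean went from 1.16 ± 0.517 to 16.3 ± 1.27 CPM (log2 fold change 3.80, SE 0.19, adjusted p value 3.38e-09 by edgeR). The summed counts were 43 in control (95% Poisson interval 31.1 to 57.9) and 644 in GCNT1 OE (595 to 696). The gene was thus detected in each control library, though weakly, and the change was far larger than the spread within either group.

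PCDHB9, near the middle of the cluster, had the fewest reads of the 3. Its counts were 5, 7 and 4 in control and 27, 32 and 31 in GCNT1 OE, so the groups did not overlap. All 3 control libraries were within a few reads of the floor. The levels were 0.397, 0.562 and 0.338 CPM in control and 2.33, 2.33 and 2.2 CPM in GCNT1 OE. The mean went from 0.433 ± 0.116 to 2.29 ± 0.0775 CPM (log2 fold change 2.37, SE 0.28, adjusted p value 1.13e-05 by edgeR). The sums of 16 control reads (interval 9.15 to 26) and 90 GCNT1 OE reads (72.4 to 111) show how coarse the control level is.

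PCDHB14, towards the far end of the cluster, went the other way. It had 28, 24 and 24 counts in control and 10, 10 and 16 in GCNT1 OE. Each GCNT1 OE library was below each control library, with GCNT1 OE library 3 the nearest to the controls. The levels were 2.22, 1.93 and 2.03 CPM in control and 0.864, 0.728 and 1.13 CPM in GCNT1 OE. The mean went from 2.06 ± 0.151 to 0.909 ± 0.207 CPM (log2 fold change -1.17, SE 0.25, adjusted p value 0.00141 by edgeR). The sums were 76 (interval 59.9 to 95.1) and 36 (25.2 to 49.8). PCDHB14 was thus lowered but still detected in all GCNT1 OE libraries. Non-overlapping groups are common in these data, since 62.5% of all genes had them. In bulk RNA, a change in the number of cells that express a gene and a change in its RNA per cell cannot be told apart.

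**Figure D2:**
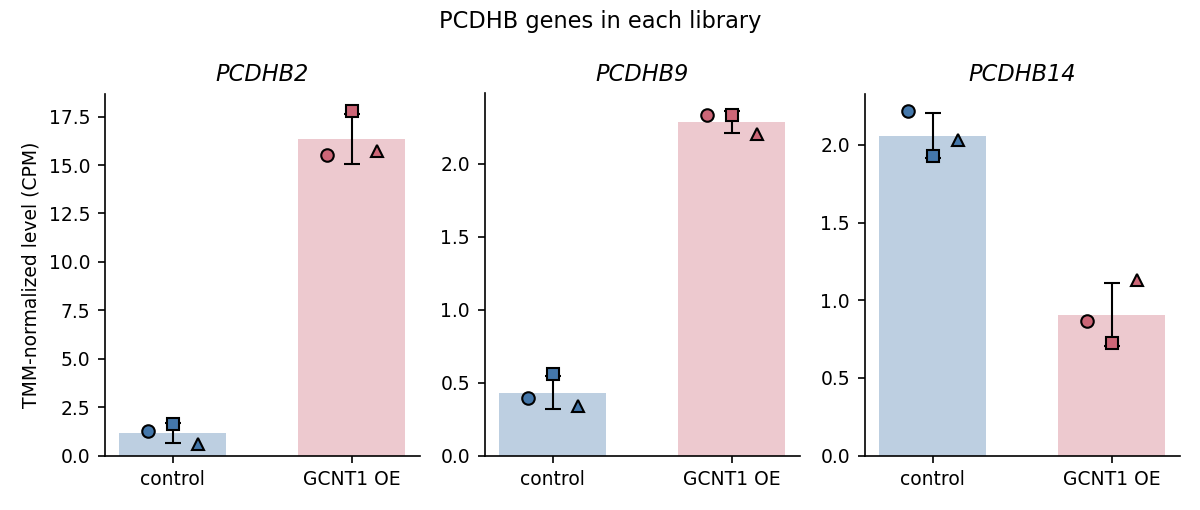
TMM-scaled CPM (y axis, linear from 0, a scale of its own for each gene) of PCDHB2, PCDHB9 and PCDHB14 in control (blue) and GCNT1 OE (red) libraries; bars are means, error bars SD of 3 libraries, and circles, squares and triangles are libraries 1, 2 and 3. PCDHB2 (1.16 to 16.3 CPM) and PCDHB9 (0.433 to 2.29 CPM) are higher and PCDHB14 (2.06 to 0.909 CPM) lower in GCNT1 OE, with no overlap of the groups.

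Levels can be set side by side between genes once divided by transcript length. Per kilobase of transcript, the control level was 0.467 ± 0.0342 CPM for PCDHB14, 0.283 ± 0.126 CPM for PCDHB2 and 0.0987 ± 0.0265 CPM for PCDHB9. PCDHB14 was the highest of the 3 in each control library and PCDHB9 the lowest. PCDHB2 and PCDHB9 came close to each other, with 0.145 CPM per kilobase as the lowest library of PCDHB2 and 0.128 as the highest of PCDHB9. In GCNT1 OE the order was PCDHB2 with 3.99 ± 0.311, PCDHB9 with 0.522 ± 0.0177 and PCDHB14 with 0.206 ± 0.0468 CPM per kilobase. The gene that led in control was last in GCNT1 OE, and no library of one gene overlapped those of another.

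The same orders were seen within single libraries, where library size and composition cancel. The ratio of PCDHB2 to PCDHB14, per kilobase, was 0.617, 0.9 and 0.315 in control and 19.3, 26.4 and 14.9 in GCNT1 OE. PCDHB14 thus exceeded PCDHB2 in every control library and PCDHB2 exceeded PCDHB14 in every GCNT1 OE library. The ratio of PCDHB9 to PCDHB14 was 0.18, 0.294 and 0.168 in control and 2.72, 3.23 and 1.95 in GCNT1 OE. For the 2 genes that rose, the ratio of PCDHB2 to PCDHB9 was 3.43, 3.06 and 1.87 in control and 7.1, 8.17 and 7.64 in GCNT1 OE. The ratios differed between the groups by 35.2-fold, 12.4-fold and 2.82-fold, in the order given. No test is given for them, because each member stood in the table through the group where it was high. That group was GCNT1 OE for PCDHB2 and PCDHB9 and control for PCDHB14.

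As a share of all PCDHB reads, PCDHB14 made up 57.1%, 47.1% and 68.6% in the controls and 4.63%, 3.5% and 5.97% in the GCNT1 OE libraries. PCDHB2 made up 32.7%, 39.2% and 20% in the controls and 82.9%, 85.3% and 82.5% in GCNT1 OE. The widest Wilson 95% interval of a GCNT1 OE share of PCDHB2 was 77.3% to 87.3%, and that of control library 2, the highest control, was 27% to 52.9%. PCDHB9 kept to 10.2%, 13.7% and 11.4% in control and 12.5%, 11.2% and 11.6% in GCNT1 OE, which is within the counting error of each library. The intervals of PCDHB14 and PCDHB2 overlapped in control library 1 (43.3% to 70% and 21.2% to 46.6%) and in control library 2 (34.1% to 60.5% and 27% to 52.9%). These shares cover the 3 measured genes and say nothing of the other 13. The summed level of the 3 genes was 3.65 ± 0.606 CPM in control and 19.5 ± 1.16 CPM in GCNT1 OE, most of it PCDHB2, and is no measure of the whole cluster. Among all reads of the 16 measured clustered protocadherins, the PCDHB genes took 4.75%, 5.56% and 4.38% in control and 18.7%, 17.6% and 16.6% in GCNT1 OE.

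The alpha and gamma clusters, which flank the beta cluster, likewise held genes that moved in both directions. Of 7 PCDHA genes, 2 were called higher, 1 lower and 4 were not called, with a median log2 fold change of 0.05. Of 6 PCDHG genes, 2 were called higher and 4 lower, with a median of -0.87. The median over all genes was 0.00, and 19.3% of all genes were called, 8.28% as higher and 11.1% as lower. PCDHA4, PCDHA5 and PCDHGB5 passed the table's floor of 1.01 CPM through GCNT1 OE, and PCDHGA10 and PCDHGB7 through control, so these counts are not read against that share. In the alpha cluster PCDHA5 had 4, 1 and 3 counts in control and 24, 36 and 39 in GCNT1 OE (log2 fold change 3.47, SE 0.36), and PCDHA4 rose by 1.70 on the log2 scale (SE 0.26). PCDHA8 fell by 1.31 (SE 0.29). The 4 uncalled genes, PCDHA12, PCDHA13, PCDHAC1 and PCDHAC2, lay between -0.22 and 0.31. In the gamma cluster PCDHGB5 had 10, 13 and 13 counts in control and 250, 322 and 313 in GCNT1 OE (log2 fold change 4.51, SE 0.14), a rise of the kind seen for PCDHB2, and PCDHGB2 rose by 0.98 (SE 0.12). PCDHGA10 went from 49, 52 and 34 counts to 2, 2 and 8, and PCDHGB7 from 52, 39 and 33 counts to 0, 0 and 2. The other called falls were PCDHGC5, by 0.96, and PCDHGA1, by 0.77. The call of PCDHGA1 was lost with DESeq2, with glmTreat, without control library 1 (-0.69) and without GCNT1 OE library 3 (-0.70). Reads in the shared last exons of these clusters cannot be given to 1 gene, a limit that the single-exon PCDHB genes do not have.

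Over the stretch from PCDHA4 to PCDHGC5, 17 genes were analysed and 13 were called, 7 as higher and 6 as lower, where 19.3% of all genes were called. This count too is a description, for the reason given above. The 1 gene among them that is no protocadherin was TAF7, a single-exon gene on the opposite strand that encodes a subunit of the general transcription factor TFIID and lies between the beta and gamma clusters. TAF7 had 162, 171 and 161 counts in control and 1018, 1246 and 1278 in GCNT1 OE, or 13.4 ± 0.467 and 89.8 ± 1.55 CPM (log2 fold change 2.74, SE 0.07, adjusted p value 2.63e-12 by edgeR). Every GCNT1 OE library was far above every control library. Per kilobase, TAF7 was at 5.84 ± 0.204 CPM in control and 39.1 ± 0.675 CPM in GCNT1 OE, above all 3 PCDHB genes in both groups. All of its 75-base stretches (100%) occurred once in hg38, although it overlaps SLC25A2, which was not analysed here.

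Measured from the start of PCDHB2, PCDHB9 begins at 92.5 kb, PCDHB14 at 128.7 kb and TAF7 at 223.9 kb. The falling gene PCDHB14 thus stands between rising ones. Among the 10 analysed genes before the alpha cluster none was called, where 19.3% of all genes were, and the log2 fold changes ran from -0.52 (TMCO6) to 0.07 (WDR55) with a median of -0.17. The nearest, ZMAT2, was at -0.02. Among the 10 after the gamma cluster 2 were called, RELL2 as lower (-0.86) and the nonclustered protocadherin PCDH1 as higher (1.18), with a median of -0.11. The nearest of these, DIAPH1, which encodes a formin that assembles actin filaments, was at 251 ± 3.54 CPM in control and 256 ± 5.46 CPM in GCNT1 OE (log2 fold change 0.03, adjusted p value 0.594 by edgeR). In the wider list of 27 neighbours on 5q31, TAF7 and the growth factor gene FGF1 (log2 fold change 0.97) were called higher, RELL2 was called lower and 24 were not called (11.1% called, against 19.3% of all genes). RELL2 was not called without control library 3 (-0.65) or with glmTreat. TMCO6 was called lower without control library 1 (-0.61) and without GCNT1 OE library 3 (-0.62), and PURA without control library 3 (-0.59).

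**Figure D3:**
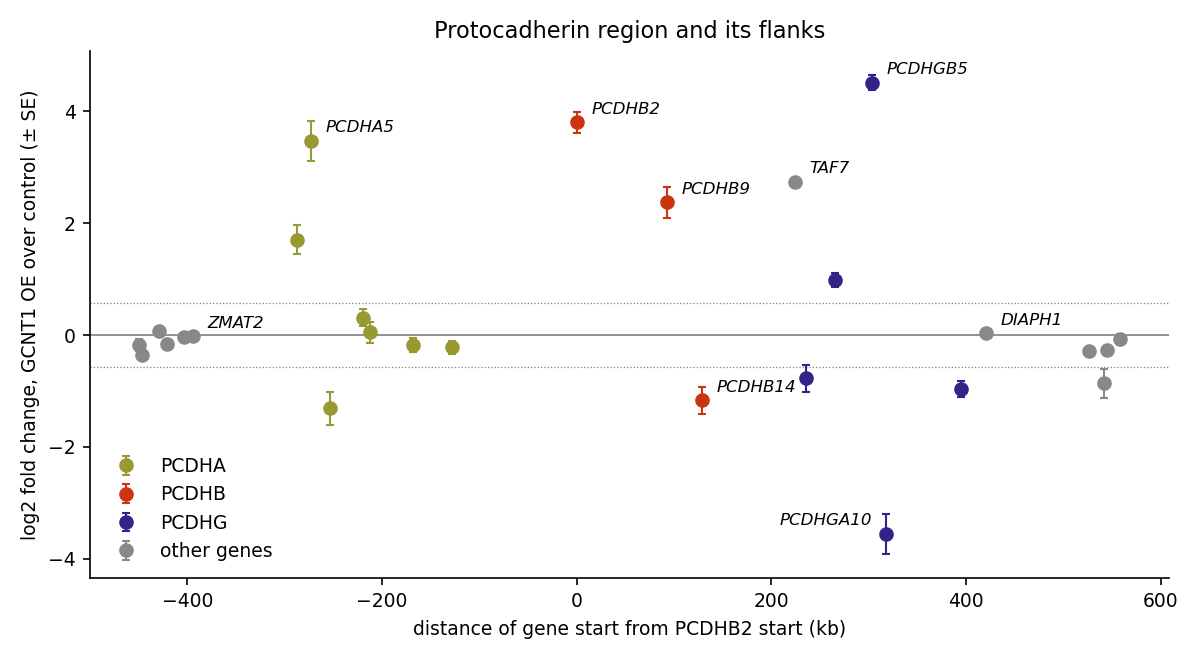
Log2 fold change of GCNT1 OE over control (y axis, with SE) against the distance of each gene's start from that of PCDHB2 (x axis, kb), for analysed PCDHA, PCDHB and PCDHG genes and other genes of the region; dotted lines mark the threshold of 0.58. PCDHB2 (3.80), PCDHB9 (2.37), TAF7 (2.74), PCDHA5 (3.47) and PCDHGB5 (4.51) stand above and PCDHB14 (-1.17) and PCDHGA10 (-3.55) below the flanking ZMAT2 (-0.02) and DIAPH1 (0.03); PCDHGB7, with 0, 0 and 2 counts in GCNT1 OE, is not drawn.

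Nonclustered protocadherins, which lie outside the 3 clusters, also went in both directions. Of 8, 2 were called higher, 2 lower and 4 were not called (50% called, against 19.3% of all genes), with a median log2 fold change of -0.26. PCDH19, at 0.605 and 0.801 CPM in GCNT1 OE libraries 1 and 2, stood in the table through control. The share is therefore a description and is not read against that of all genes. PCDH1, named above, and PCDH7, at 0.96, were higher. PCDH18 went from 24.4 ± 1.43 to 9.73 ± 0.634 CPM (log2 fold change -1.32) and PCDH19 from 5.01 ± 1.03 to 0.847 ± 0.268 CPM (log2 fold change -2.53).

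The genes for CTCF and cohesin are known to fold the clusters and bring promoters to distant enhancers. Of 16 genes of this list 0 were called higher, 1 lower and 15 were not called (6.25% called, against 19.3% of all genes), and the median log2 fold change was -0.07. At the adjusted p value alone 3 passed as higher, among them the cohesin subunit STAG1 (0.34), and 3 as lower, while 57.6% of all genes passed. CTCF was at 138 ± 2.78 CPM in control and 142 ± 3.92 CPM in GCNT1 OE (log2 fold change 0.04, adjusted p value 0.502 by edgeR). RAD21, the cleavable cohesin subunit, was at 690 ± 27.7 and 525 ± 18.5 CPM (log2 fold change -0.39, adjusted p value 9.55e-06 by edgeR), which did not reach the fold threshold. The called gene was NIPBL, the cohesin loader, which fell from 114 ± 11.3 to 64 ± 10.4 CPM (log2 fold change -0.83, adjusted p value 1.54e-05 by edgeR). Whether these values bear on the PCDHB genes was not tested.

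Of 25 genes that write, read or remove DNA methylation or form heterochromatin, 0 were called, against 19.3% of all genes, and the median log2 fold change was 0.09. At the adjusted p value alone, without the fold threshold, 14 of them passed, 9 as higher and 5 as lower, and so did 57.6% of all genes. SMCHD1, a chromatin protein that represses clustered protocadherins, was at 318 ± 30.6 CPM in control and 227 ± 26.4 CPM in GCNT1 OE (log2 fold change -0.49, adjusted p value 0.000212 by edgeR). DNMT3B, a methyltransferase that sets methylation at these promoters, was at 10.1 ± 0.361 and 7.11 ± 0.46 CPM (log2 fold change -0.51, adjusted p value 0.00132 by edgeR). Both were lower by less than the fold threshold, while EED and EZH2, subunits of the Polycomb complex that methylates histone H3, were higher by less than it (log2 fold changes 0.50 and 0.34), and SUZ12, of the same complex, was lower (-0.37). In the same list UHRF1 (0.48), CDCA7 (0.45) and EHMT1 (0.49) were also higher and DNMT3A (-0.52) was also lower, each by less than the threshold. The part of these differences in the PCDHB values was not tested.

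The last list held 22 genes for the kinases, actin regulators and proteases that act with or on protocadherins at the membrane. Of these 1 was called higher, 2 lower and 19 were not called (13.6% called, near the 19.3% of all genes), with a median log2 fold change of 0.04. The actin regulator WASF3 was higher, from 6.4 ± 0.52 to 10.2 ± 2.03 CPM (log2 fold change 0.67), but it was not called without GCNT1 OE library 2 (0.51) or with glmTreat. The kinase ROCK2 went from 188 ± 11.8 to 87.3 ± 10.7 CPM (log2 fold change -1.11), and CYFIP2, a subunit of the WAVE complex of actin assembly, from 60.5 ± 0.743 to 35.6 ± 2.14 CPM (log2 fold change -0.76). The kinases PTK2 and PTK2B, which bind the tails of clustered protocadherins, had log2 fold changes of -0.17 and 0.51 and were not called, although PTK2B was called higher without GCNT1 OE library 1 (0.58).

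The directions of the PCDHB genes held under each alternative that could give a value. The filter of 0.5 CPM in 3 libraries and the fit without a filter kept the same genes as the reported fit, so they only repeat it. The log2 fold change of PCDHB2 lay between 3.50 and 4.10 over 14 alternatives, and the lowest was without control library 3 and the highest without control library 2. PCDHB9 lay between 2.23 and 2.60 over 14 alternatives. PCDHB14 lay between -1.37 and -1.01 over 15 alternatives, with adjusted p values of 0.000953 to 0.0446. The largest of these came from glmTreat, edgeR's test of whether a change exceeds the fold threshold itself. Of the filters tried, the one that asked for 10 counts in every library removed PCDHB2, which missed it in control library 3, and PCDHB9, which missed it in all 3 control libraries.

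**Figure D4:**
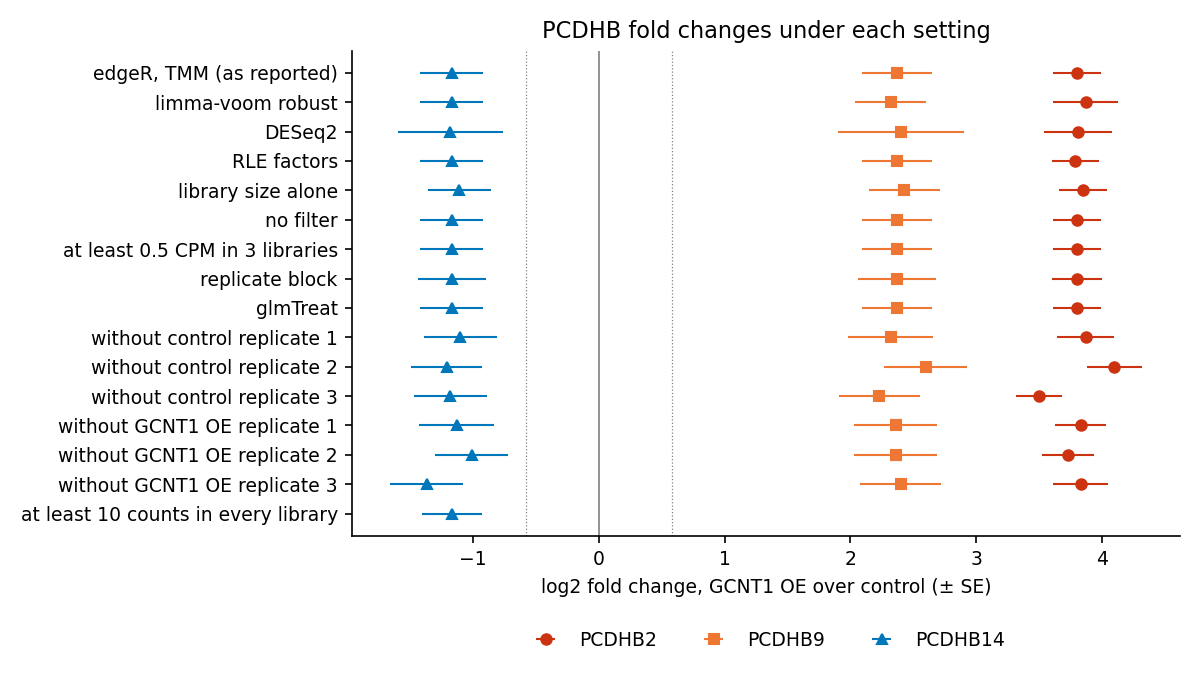
Log2 fold change of GCNT1 OE over control (x axis, with SE) of PCDHB2 (red circles), PCDHB9 (orange squares) and PCDHB14 (blue triangles) under each setting (y axis), the reported one first; dotted lines mark the threshold of 0.58 in each direction. PCDHB2 stays between 3.50 and 4.10, PCDHB9 between 2.23 and 2.60 and PCDHB14 between -1.37 and -1.01, and the filter of 10 counts in every library leaves PCDHB14 alone.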

How the data were processed

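RNA from 6 PC3 libraries (3 control, 3 GCNT1 OE) was prepared as stranded mRNA libraries and sequenced as single reads of 75 bases. The authors trimmed the reads, used HISAT2 to map them to hg38 and featureCounts to count them, and deposited raw read counts per gene, neither normalized nor pooled. The annotation and the low-count filter are not given in the sources used here. Of 12703 Entrez identifiers, 12661 were matched to symbols, which set the PCDHB members. Groups came from the sample labels. The members, gene lists and tests were chosen with earlier results of these data known.

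The counts were fitted with edgeR 4.0.16 under R 4.3.3 (TMM after filterByExpr, quasi-likelihood test, Benjamini-Hochberg adjustment over all 12703 genes, no replicate block). The SE is the absolute log2 fold change divided by the square root of F. Libraries of a group differed by more than sampling noise (chi-square per degree of freedom 1.65 to 5.61). The text names each PCDHB gene, GCNT1, CTCF, RAD21, SMCHD1, DNMT3B, TAF7, DIAPH1 and, per list, up to 2 called genes with the highest and 2 with the lowest log2 fold change whose groups did not overlap; other genes were named after their values were seen. Alternatives were limma-voom (limma 3.58.1), RLE factors, DESeq2 1.42.0, scaling by library size, filters of 0.5 CPM in 3 libraries, of 10 counts in every library and none, glmTreat, a replicate block, and leaving out each library. The fit was tested on simulated data. Part of the marker list is not reported here. Gene structures came from RefSeq and GENCODE 44, and identities from Biopython 1.88 alignments.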

Additional observations from a re-analysis of the deposited data

How the results depend on the processing

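The 3 PCDHB genes kept their direction and stayed past the threshold under each alternative that could be fitted, 14 for PCDHB2 and PCDHB9 and 15 for PCDHB14. Among these, the filter of 0.5 CPM in 3 libraries and the fit without a filter kept the same genes as the reported fit. They repeat that fit and are no separate check. Leaving out single libraries gave log2 fold changes of 3.50 to 4.10, 2.23 to 2.60 and -1.37 to -1.01. With at least 10 counts in every library, PCDHB2 and PCDHB9 were not tested, so 0 PCDHB genes were called higher. GCNT1 lost its call with DESeq2 (log2 fold change 0.98, adjusted p value 0.0821), with glmTreat (0.98, adjusted p value 0.396) and without control library 1, control library 3 or GCNT1 OE library 3, with 0.49 to 1.21 over the 6 left-out libraries. Over all genes glmTreat called 1392, with 527 higher and 865 lower, against 2457 with 1052 and 1405, since it tests a stricter hypothesis. Library size alone moved the median of all genes to 0.06 and called 1283 higher among 2513.

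Samples of the same replicate number did not deviate together (r of -0.273, -0.0024 and -0.109, against -0.2 to 0.263 for different numbers). So few values cannot show whether the samples were paired. With a replicate block the log2 fold changes were 3.80, 2.37 and -1.17 (adjusted p values 5.28e-08, 9.16e-05 and 0.00418) for PCDHB2, PCDHB9 and PCDHB14, GCNT1 had 0.94 (0.0461) and 2423 genes were called. Depth limits PCDHB9 most, whose control libraries held 4 to 7 reads. A filter of 10 counts in every library left 2 PCDHG genes called lower and 0 PCDHA genes called higher, since it tests fewer genes.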
